A study of Mus musculus with 2 samples.

Results

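Xenobiotic-metabolising enzymes make foreign, fat-soluble chemicals easier to excrete. Oxidases and hydrolases (cytochrome P450s, flavin monooxygenases, aldehyde dehydrogenases, carboxylesterases and epoxide hydrolases) expose or add a polar group, and transferases then join glutathione, sulfate or glucuronic acid to it. The lung meets inhaled chemicals directly, and club cells of its airways are known as the main site of P450 activity there, with alveolar type 2 (AT2) cells as a second site. The members were the genes whose symbol in the deposited tables carried a family name of these enzymes: Cyp1 to Cyp4, Gst, Ugt, Sult, Aldh, Ephx, Fmo or Ces. Cyp2f2, a club cell P450, was left out of the set. The rule used names and no measured value, and it found 85 of the 15113 genes in the tables: 26 P450 genes, 18 Gst, 16 Aldh, 7 Ces, 6 Fmo, 6 Ugt, 4 Sult and 2 Ephx genes. RefSeq holds 194 protein-coding genes whose names meet the same rule.

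The 2 libraries were made from RNA of lung epithelial cells of C57BL/6 mice aged 6 to 8 weeks, sorted as CD45-negative and Sftpc-positive. The control library came from wild-type mice without a tumour. The tumour-bearing library came from mice given 1000000 luciferase-labelled LLC cells, a mouse lung carcinoma line, under the skin of the back, a model in which the tumour spreads to the lung by itself. Each group held 1 library, and the number of mice behind it was not given in the sources used here, so differences are between these libraries only, and p-values are left out.

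Values are RPKM, reads per kilobase of gene and 1000000 reads of the library, as deposited. From the digits of the RPKM, library totals of 5335352 (control) and 5387114 reads (tumour-bearing) were estimated, and read numbers were recovered for all 85 members. Folds are direct ratios of RPKM, each with an exact (Clopper-Pearson) 95% interval of the ratio of reads, which covers counting error only. Where a library had 0 reads, the fold is instead given as at least the value reached with a floor of 3 reads in that library, which leaves out the counting error of the other library. Whether a gene counted as at least 2-fold apart was decided on log2((tumour-bearing RPKM + 1)/(control RPKM + 1)). Genes reaching 1 RPKM in either library were compared this way and are called tested below. The added 1 makes ratios of low genes smaller on this scale. AT2 markers led both libraries, with a level summed over 10 genes of 123852 RPKM (control) and 87015 RPKM (tumour-bearing). Most of this sum was Sftpc, at 94902.5 and 54968.1 RPKM. Of the 10 AT2 genes, Sftpd was at least 2-fold higher in the tumour-bearing library, Etv5 was as far lower and 8 lay within 2-fold. The leukocyte markers summed to 4.5 and 2.04 RPKM over 9 genes. Sftpc, the surfactant gene of the sort, held 18.6% of the summed RPKM of all genes in the control and 11.2% with the tumour, and a scaling that leaves it out is among those given below. In such bulk samples fewer cells of a type and less RNA per cell cannot be told apart.

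A few members stood out upward, oxidases and transferases among them, while most members were near or below their control level. Of the 68 tested members, 11 (16.2%) were at least 2-fold higher in the tumour-bearing library ("with the tumour" below), against 9.38% of all 12288 tested genes. At least 2-fold lower were 3 members (4.41%), against 6.53% of all tested genes. The other 54 lay within 2-fold. The median log2 ratio of the tested members was -0.13, with 28 above 0 and 40 below 0, and that of all tested genes was 0.06. The 11 higher members were Cyp1b1, Cyp2b10, Cyp2d22, Cyp4b1, Cyp4f39, Fmo2, Sult1a1, Sult1d1, Gstp2, Aldh1a2 and Ugt1a7c, and the 3 lower ones were Aldh1a7, Ces1b and Cyp4f15. With any of 3 scalings of the libraries to each other the split was 10 higher and 5 lower, since Cyp2d22 left the first group and Gstt1 and Gstm7 joined the second. The shares of all tested genes under these scalings are not given.

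**Figure D1:**
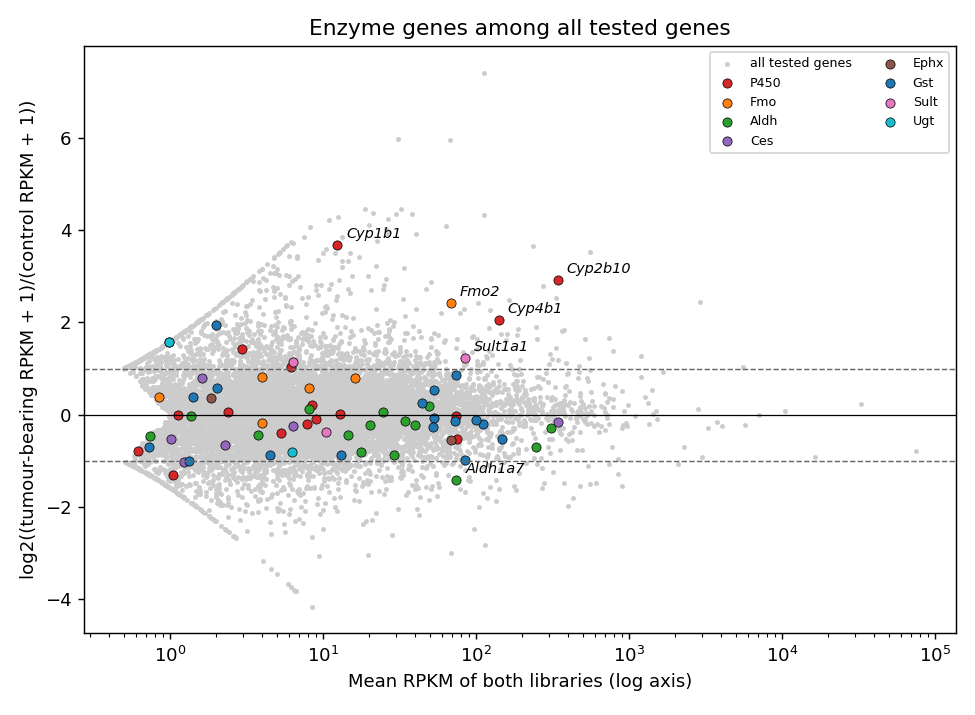
Log2 ratio of RPKM with 1 added (vertical axis, tumour-bearing over control) against the mean RPKM of both libraries (log axis). Grey points are the 12288 tested genes, coloured points the 68 tested enzyme genes by family, and dashed lines mark 2-fold. The 6 enzyme genes past 2-fold at 10 RPKM or more are labelled, 5 above and Aldh1a7 below.

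The summed level of all 85 members was 2827 RPKM in the control and 3258 RPKM with the tumour, which is 0.553% and 0.664% of the summed RPKM of all genes. The log2 ratio of these sums was 0.20, with a counting interval of 0.18 to 0.23. It turned on 1 gene: without Cyp2b10 the sums were 2748 and 2652 RPKM, a log2 ratio of -0.051. Among families, the P450 sum was 2.95-fold higher (358 and 1054 RPKM), the Fmo sum 3.40-fold higher (46.3 and 157 RPKM) and the Sult sum 2.09-fold higher (66.2 and 138 RPKM). The Aldh sum was 1.39-fold lower (1019 and 731 RPKM), the Gst sum 1.12-fold lower (864 and 774 RPKM) and the Ces sum 1.13-fold lower (381 and 338 RPKM). The Ephx sum was 1.45-fold lower (83.3 and 57.5 RPKM), and the Ugt sum was small in both (9.93 and 7.32 RPKM). The order of the families by summed level therefore differed: Aldh and Gst were first and second in the control, and P450 was first with the tumour. This place rested on Cyp2b10, since the P450 sum without it, 448 RPKM, was below the Gst and Aldh sums with the tumour.

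**Figure D2:**
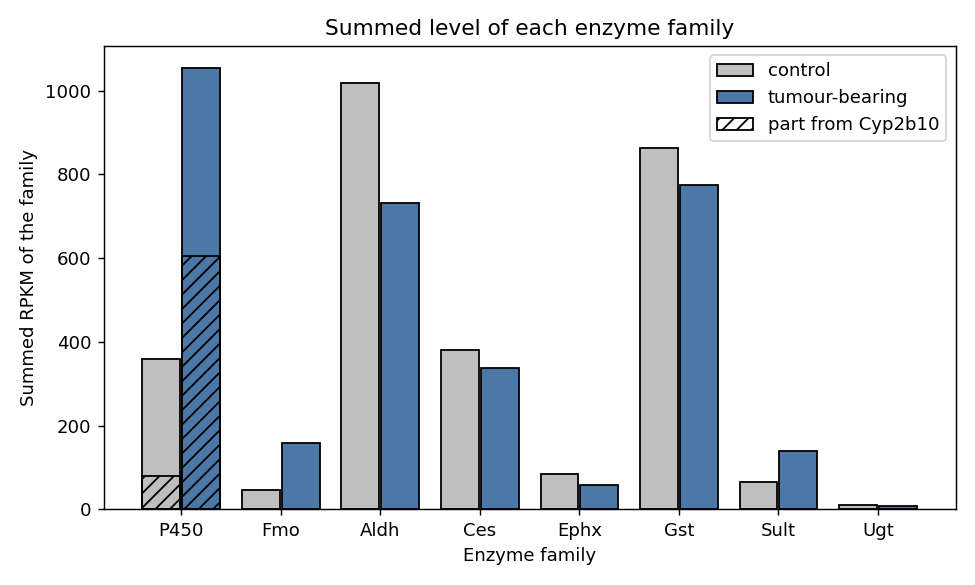
Summed RPKM (vertical axis, from 0) of the members of each enzyme family in the control (grey) and the tumour-bearing library (blue), with the part from Cyp2b10 hatched. There is 1 library per group, so no error bar is drawn. P450, Fmo and Sult sums were above the control, and the other 5 below it.

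Cytochrome P450s are haem enzymes of the endoplasmic reticulum that insert an oxygen atom into their substrates. Of 26 members, 16 were tested, 5 were at least 2-fold higher, 1 was at least 2-fold lower and 10 lay within 2-fold, with a median log2 ratio of 0.01. Cyp2b10 (GeneID 13088, chromosome 7, 25897658 to 25926624 on GRCm38) oxidises many drugs and in liver is the best known target of the xenobiotic receptor CAR. It stood at 79.6 RPKM (795 reads) in the control and 606 RPKM (6112 reads) with the tumour, 7.61-fold higher (7.07 to 8.21). By level per length it was number 11 of the 85 members in the control and number 1 with the tumour. It made up 22.3% of the P450 sum in the control and 57.5% with the tumour. The P450 sum without it was 1.61-fold higher, at 278 and 448 RPKM. Its relatives Cyp2b9 and Cyp2b19, with coding sequences 86.2% and 86.1% identical to it, had 0 reads in the control and 1 read each with the tumour.

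Cyp4b1 (GeneID 13120, chromosome 4, 115624698 to 115647721), a P450 typical of lung that turns some furan compounds into toxins, was at 54.0 RPKM (539 reads) in the control and 227 RPKM (2292 reads) with the tumour. It was 4.21-fold higher (3.83 to 4.63). Cyp1b1 (GeneID 13078, chromosome 17, 79706940 to 79715061) oxidises polycyclic hydrocarbons and oestrogens and is a target of the aryl hydrocarbon receptor. It was near the filter in the control, at 0.95 RPKM (26 reads), and at 23.8 RPKM (658 reads) with the tumour. Its ratio, 25.1-fold higher (17 to 38.7), was the highest of the members read in both libraries. Fibroblast markers were higher too, at 83.3 and 660 RPKM summed over 10 genes. In the control, Npnt (42.0 RPKM) and Inmt (16.3 RPKM) were the highest of them. Markers read in both libraries ran from Inmt, 1.88-fold higher, to Pdgfra, 41.0-fold higher, with Col1a1 30.2-fold and Npnt 4.89-fold higher. The part of fibroblasts in the value of Cyp1b1 was not tested. Cyp1a1, another member that is a textbook target of that receptor, had 8 reads in the control and 0 with the tumour. Against a floor of 3 reads, Cyp1a1 was at least 2.69-fold lower. Its higher value, 0.55 RPKM, was under the filter. Those members of the Cyp1 family thus lay on opposite sides of their control level.

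The other higher P450 genes were low. Cyp2d22, a relative of the human drug-metabolising CYP2D enzymes, was at 3.70 RPKM (55 reads) and 8.59 RPKM (129 reads), 2.32-fold higher (1.68 to 3.25). Cyp4f39, which hydroxylates very long fatty acids, was at 1.15 RPKM (16 reads) and 4.75 RPKM (67 reads), 4.15-fold higher (2.38 to 7.67). Cyp4f15, another fatty acid hydroxylase, went the other way, from 22 reads to 2 reads, 11.1-fold lower (2.73 to 97.4), at 1.91 and 0.17 RPKM. Both lie in a run of 5 Cyp4f genes on chromosome 17 (32452697 to 32947415), in which 1 gene was higher, 1 lower and 3 within 2-fold.

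The other abundant P450 genes were near or below the control. Cyp2s1, which metabolises retinoic acid and eicosanoids, was at 74.6 RPKM (1043 reads) and 73.4 RPKM (1037 reads), a ratio of 0.98 (0.90 to 1.07). Cyp2s1 and Cyp2b10 lie within 300 kb of each other on chromosome 7. Cyp4f13 was at 12.8 RPKM (118 reads) and 13.0 RPKM (121 reads). Cyp4v3, a fatty acid hydroxylase, was at 89.7 RPKM (1402 reads) and 61.8 RPKM (976 reads), 1.45-fold lower (1.34 to 1.58). Cyp2f2, outside the set, was also lower, at 1203 RPKM (11821 reads) and 491 RPKM (4876 reads), 2.45-fold (2.37 to 2.53).

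The RNA level of 4 members was at 100 RPKM or more with the tumour and at least 2-fold above the control: Cyp2b10, Cyp4b1, Sult1a1 and Fmo2. The 250 bases before their start sites are shown because these genes carried the upward difference. They are from RefSeq on GRCm38.p6, 5′ to 3′ in the direction of the gene: chr7:25897408-25897657 on the plus strand for Cyp2b10, and on the minus strand chr4:115647722-115647971 for Cyp4b1, chr7:126676419-126676668 for Sult1a1 and chr1:162898759-162899008 for the more upstream of the 2 listed starts of Fmo2. The listed start of Sult1a1 lies inside its gene interval. Capitals mark letters that match any of 4 motifs on either strand: GCGTG, the core of the aryl hydrocarbon receptor element, TGACNNNGC, the core of the antioxidant element, AGGTCA, the hexamer of many nuclear receptors, and AGAACA, the hexamer of the glucocorticoid receptor. TGACNNNGC can share letters with AGGTCA read on the other strand.
Cyp2b10: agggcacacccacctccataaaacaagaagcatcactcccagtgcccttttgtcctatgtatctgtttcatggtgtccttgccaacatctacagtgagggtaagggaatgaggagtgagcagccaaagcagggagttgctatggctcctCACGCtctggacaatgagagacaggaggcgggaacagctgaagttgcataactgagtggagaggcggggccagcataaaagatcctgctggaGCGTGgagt
Cyp4b1: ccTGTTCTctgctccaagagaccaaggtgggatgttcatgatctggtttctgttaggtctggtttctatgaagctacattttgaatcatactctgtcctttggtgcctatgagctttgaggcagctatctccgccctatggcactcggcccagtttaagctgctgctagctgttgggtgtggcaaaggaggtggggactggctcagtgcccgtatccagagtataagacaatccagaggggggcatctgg
Sult1a1: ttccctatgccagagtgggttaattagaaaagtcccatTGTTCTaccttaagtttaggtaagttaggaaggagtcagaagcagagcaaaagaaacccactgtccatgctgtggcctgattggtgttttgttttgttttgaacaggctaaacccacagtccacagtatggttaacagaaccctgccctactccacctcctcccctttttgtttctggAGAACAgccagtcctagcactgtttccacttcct
Fmo2: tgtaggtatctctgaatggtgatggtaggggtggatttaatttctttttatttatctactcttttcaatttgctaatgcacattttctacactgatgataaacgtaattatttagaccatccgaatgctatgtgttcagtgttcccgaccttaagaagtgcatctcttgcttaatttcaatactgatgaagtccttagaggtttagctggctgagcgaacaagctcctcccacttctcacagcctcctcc
Cyp2b10 had GCGTG at 2 places, Cyp4b1 had AGAACA at 1 place and Sult1a1 at 2 places. The window of Fmo2 held no match. Over all 11 promoters of 10 of the higher members, GCGTG occurred in 5 (45.5%) and AGAACA in 4 (36.4%), against 28.2% and 16.1% of all 32851 promoters of the same length. AGGTCA occurred in 2 (18.2%) and TGACNNNGC in 1 (9.09%), against 14.0% and 10.2%. Such short matches are a description of the letters and not evidence of binding, and 11 promoters are few.

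Flavin monooxygenases add oxygen to nitrogen and sulfur atoms, and Fmo2 is their main form in lung. All 6 members were tested, with 1 higher by 2-fold or more and a median log2 ratio of 0.68. Fmo2 (GeneID 55990, chromosome 1, 162874317 to 162898758) was at 20.8 RPKM (371 reads) in the control and 116 RPKM (2091 reads) with the tumour, 5.58-fold higher (5 to 6.25). Fmo1 and Fmo4 were 1.56-fold (1.17 to 2.09) and 2.06-fold (1.26 to 3.46) higher, within 2-fold once 1 was added to each value, at 9.96 and 5.40 RPKM with the tumour. The interval of Fmo6, from 6 and 11 reads, included no difference (0.62 to 5.98). Fmo5, the member on chromosome 3, was below 0, with a ratio of 0.86 (0.66 to 1.13).

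**Figure D3:**
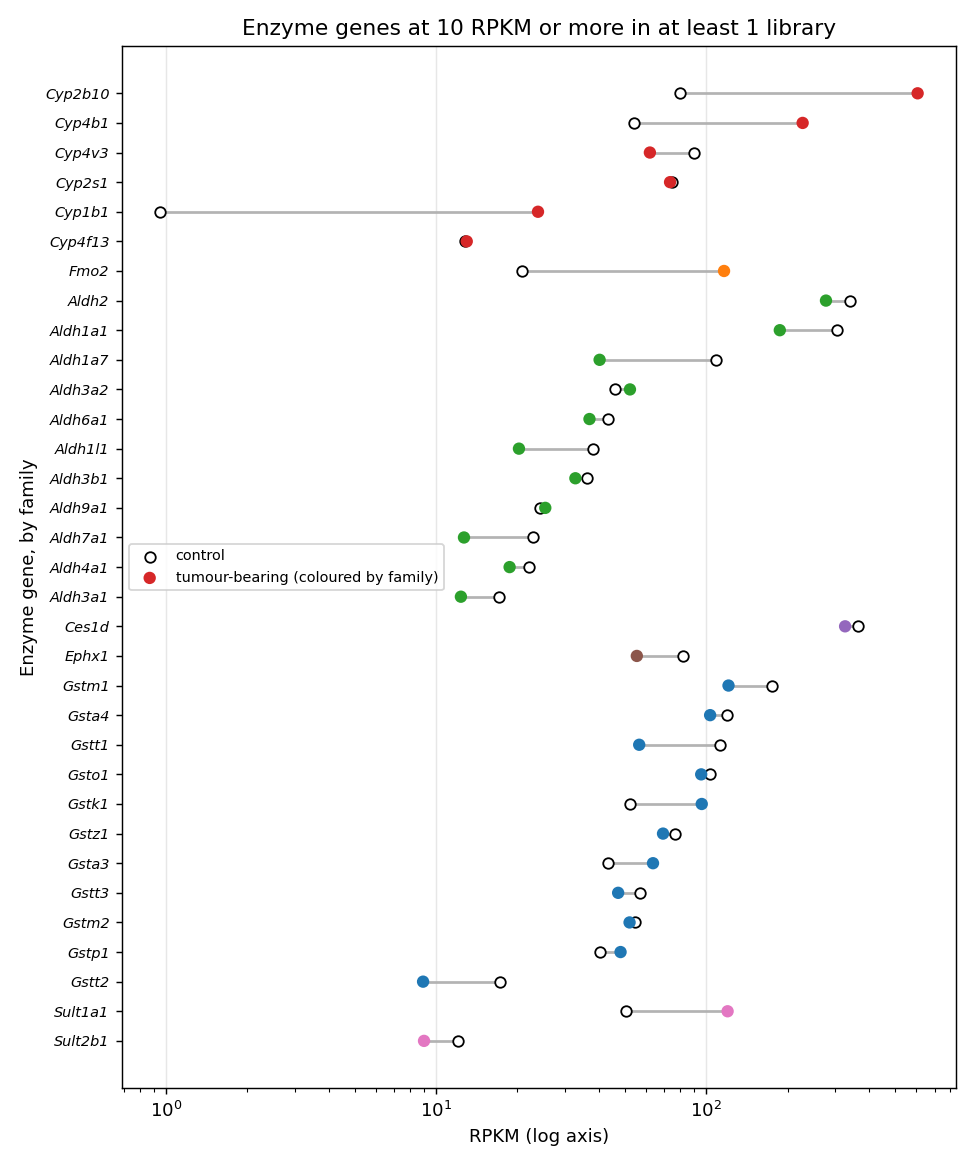
RPKM (log axis) of 33 of the 34 enzyme genes that reached 10 RPKM in either library, by family; open circles are the control library and filled circles the tumour-bearing library, coloured by family. Cyp2b10, Cyp4b1, Cyp1b1, Fmo2 and Sult1a1 lie far to the right of their open circles, while most Aldh and Gst genes lie slightly to the left.

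Aldehyde dehydrogenases oxidise aldehydes to acids. All 16 members were tested: 1 was 2-fold or more higher, 1 as far lower and 14 within 2-fold, and 12 of 16 had a log2 ratio below 0, with a median of -0.26. The Aldh1a genes Aldh1a1, Aldh1a2 and Aldh1a7 were lower as a sum, 414 and 229 RPKM. Aldh1a1 (GeneID 11668), which makes retinoic acid and detoxifies lipid aldehydes, was at 305 RPKM (3303 reads) and 187 RPKM (2049 reads), 1.63-fold lower (1.54 to 1.72). Its neighbour Aldh1a7 (GeneID 26358, chromosome 19, 20692953 to 20727556) was at 109 RPKM (1198 reads) and 40.3 RPKM (447 reads), 2.71-fold lower (2.43 to 3.02). With 1 added, the log2 ratio of Aldh1a7 was the lowest of all tested members. By direct ratio some members with few reads were further down, such as Cyp4f15 at 11.1-fold lower. The coding sequences of this pair are 91.7% identical, so reads may be exchanged between them, but both were lower. Aldh1a2, the retinal dehydrogenase known from embryos and from mesothelial and stromal cells, had 0 reads in the control and 24 reads (1.97 RPKM) with the tumour, at least 7.92-fold higher against the floor of 3 reads.

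The most abundant member of this family, Aldh2, which clears acetaldehyde in mitochondria, was at 341 RPKM (4019 reads) and 277 RPKM (3299 reads), 1.23-fold lower (1.17 to 1.29). Aldh1l1, a folate enzyme, was at 37.9 RPKM (627 reads) and 20.3 RPKM (338 reads), 1.87-fold lower (1.64 to 2.14). Aldh7a1, of lysine breakdown, was at 22.9 RPKM (379 reads) and 12.7 RPKM (212 reads), 1.81-fold lower (1.52 to 2.15). Their intervals lay wholly below the control level, unlike those of some genes that follow. Aldh3a1, an aldehyde-detoxifying enzyme of cornea and a target of the aryl hydrocarbon receptor, was at 17 RPKM (157 reads) and 12.3 RPKM (115 reads). Aldh6a1, of valine breakdown, was at 43.2 RPKM (772 reads) and 36.9 RPKM (666 reads). Aldh4a1, of proline breakdown, was at 22.1 RPKM (395 reads) and 18.7 RPKM (338 reads). The ratios of these 3 genes were 0.73 to 0.85. Aldh3b1 was at 36.3 RPKM (371 reads) and 32.8 RPKM (338 reads), with an interval of 0.78 to 1.05. Aldh9a1 was at 24.2 RPKM (366 reads) and 25.3 RPKM (387 reads), with an interval of 0.91 to 1.21. Aldh3a2, the fatty aldehyde dehydrogenase, was slightly higher, at 46.0 RPKM (769 reads) and 52.2 RPKM (880 reads), with an interval of 1.03 to 1.25.

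The abundant hydrolases were below the control. Carboxylesterases cleave esters, and Ces1d (GeneID 104158, chromosome 8, 93166072 to 93197804), also known as a triacylglycerol hydrolase, was the most abundant of all 85 members in the control and number 2 with the tumour. It was at 366 RPKM (3839 reads) and 327 RPKM (3459 reads), 1.12-fold lower (1.07 to 1.17). Its 5 neighbours in the Ces1 run on chromosome 8 (93020214 to 93337209) were low, all under 10 RPKM, and all 5 tested genes of the run had a log2 ratio below 0, with a median of -0.54. Only Ces1b passed 2-fold, from 21 reads (2 RPKM) to 5 reads (0.47 RPKM), 4.24-fold lower (1.56 to 14.4). Ces2g, from 14 and 36 reads, had a ratio of 2.55 (1.34 to 5.11) and lay within 2-fold once 1 was added. Ephx1, the microsomal epoxide hydrolase that opens reactive epoxides made by P450s, was at 81.9 RPKM (746 reads) and 55.3 RPKM (509 reads), 1.48-fold lower (1.32 to 1.66). Ephx4 had 10 and 15 reads, with an interval of 0.62 to 3.70.

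Glutathione transferases join glutathione to reactive chemicals. Of 18 members, 17 were tested, with 1 higher by 2-fold or more, 0 lower by as much and 16 within 2-fold, and the median log2 ratio was -0.15. The theta class lay below its control level: Gstt1 was at 112 RPKM (627 reads) and 56.4 RPKM (319 reads), 1.98-fold lower (1.73 to 2.28), just inside the size rule. Gstt2 was at 17.2 RPKM (126 reads) and 8.94 RPKM (66 reads), 1.93-fold lower (1.42 to 2.64). Gstt3 was at 57.0 RPKM (570 reads) and 47.2 RPKM (476 reads), 1.21-fold lower (1.07 to 1.37). All 3 genes lie side by side on chromosome 10 (75774117 to 75837419).

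The mu class was lower in part. Gstm1, its most abundant member and a major detoxifying form in liver, was at 175 RPKM (1225 reads) and 121 RPKM (853 reads), 1.45-fold lower (1.33 to 1.58). Gstm2 was at 54.3 RPKM (325 reads) and 52.0 RPKM (314 reads), with an interval of 0.82 to 1.12. The 4 low members Gstm4, Gstm5, Gstm6 and Gstm7 had 2 to 55 reads in either library. In the whole run of 6 genes on chromosome 3 (107895854 to 108045179), 5 had a log2 ratio below 0, Gstm5 being the exception, and the median was -0.61. Coding sequences of this class are up to 86.2% identical, for Gstm2 and Gstm7.

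Other classes of glutathione transferases were divided. Gstk1, the form of mitochondria and peroxisomes, was at 52.4 RPKM (260 reads) and 96.2 RPKM (482 reads), 1.84-fold higher (1.58 to 2.14), the largest upward ratio among members of this family at 10 RPKM or more. Gsta3 was at 43.3 RPKM (335 reads) and 63.5 RPKM (496 reads), 1.47-fold higher (1.27 to 1.69). Gsta4, which removes the lipid peroxidation product hydroxynonenal, was instead at 119 RPKM (618 reads) and 103 RPKM (540 reads), with a ratio of 0.87 (0.77 to 0.97). Alpha-class genes thus lay on either side of their control level. Gsto1 was at 103 RPKM (640 reads) and 95.8 RPKM (600 reads), with an interval of 0.83 to 1.04. Gstz1, of tyrosine breakdown, was at 76.6 RPKM (812 reads) and 69.2 RPKM (740 reads), with an interval of 0.82 to 1.00. Gstp1 was at 40.3 RPKM (160 reads) and 48.2 RPKM (193 reads), with an interval of 0.96 to 1.48. Its neighbour Gstp2 went from 1 read to 16 reads (0.24 and 3.78 RPKM), 15.8-fold higher with a wide interval (2.46 to 665). The coding sequences of Gstp1 and Gstp2 are 98.1% identical, so the division of reads between them is uncertain, and their sum was 40.5 and 51.9 RPKM.

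Sulfotransferases were few and 2 of the 3 tested genes were at least 2-fold higher. Sult1a1 (GeneID 20887, chromosome 7, 126672865 to 126690443), which sulfates phenols and activates some aromatic amines, was at 50.6 RPKM (390 reads) and 120 RPKM (933 reads), 2.37-fold higher (2.10 to 2.67). Sult1d1, which sulfates catecholamines, was at 3.58 RPKM (46 reads) and 9.09 RPKM (118 reads), 2.54-fold higher (1.79 to 3.65). Sult2b1, the cholesterol sulfotransferase, was at 12.0 RPKM (74 reads) and 9.02 RPKM (56 reads), with an interval of 0.52 to 1.08. Sult4a1 had 0 and 6 reads, under the filter.

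UDP-glucuronosyltransferases were hardly read, and none of the 6 members reached 10 RPKM. Ugt1a6a, which conjugates phenols, was at 8.23 RPKM (145 reads) and 4.27 RPKM (76 reads), 1.93-fold lower (1.45 to 2.58). Ugt1a7c had 0 reads in the control and 35 reads (1.97 RPKM) with the tumour, at least 11.6-fold higher against the floor of 3 reads. Their RefSeq intervals on chromosome 1 both end at 88220002, since genes of this locus share their last exons, and Ugt1a6a and Ugt1a6b are 98.4% identical in coding sequence. Reads of the locus may therefore be divided arbitrarily among its members. The summed level of the 4 Ugt1 genes was 9.22 RPKM in the control and 6.49 RPKM with the tumour, so the sum and Ugt1a7c lay on opposite sides of the control.

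**Figure D4:**
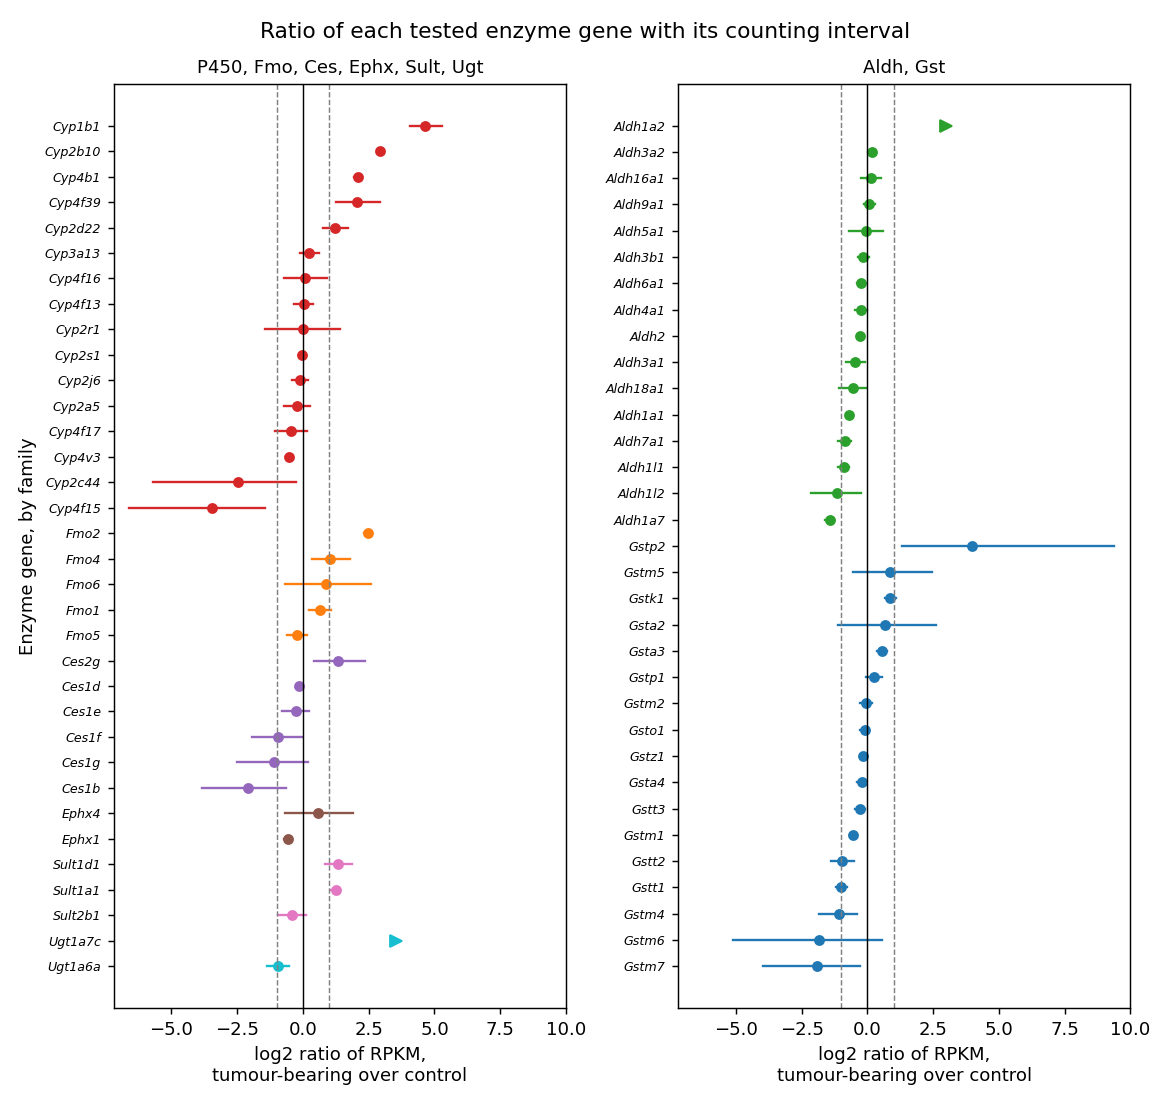
Log2 ratio of RPKM, tumour-bearing over control, of 67 of the 68 tested enzyme genes by family (vertical axis), with exact 95% intervals of the ratio of reads as bars, which cover counting error only; triangles are lower bounds for genes with 0 control reads and dashed lines mark 2-fold. Intervals of Cyp2b10, Cyp4b1, Fmo2 and Sult1a1 are short and lie past 2-fold, while those of genes with few reads, such as Gstp2 and Cyp4f15, are wide.

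Of the 34 members that reached 10 RPKM in either library, 5 were 2-fold or more higher, 1 as far lower, 21 within 2-fold and below 0, and 7 within 2-fold and above 0. The 26 members from 1 to 10 RPKM that lay within 2-fold had log2 ratios from -0.996 to 0.82. Among those 26 were 8 genes whose ratio without the added 1 passed 2-fold, 2 higher and 6 lower, none above 6.12 RPKM. The 17 members under 1 RPKM in both libraries had at most 12 reads in either. Just inside this filter, from 1.03 to 1.14 RPKM, were Aldh1l2, Cyp2c44, Cyp2r1, Fmo6 and Gstm6, and just outside, at 0.82 and 0.88 RPKM, Ugt1a6b and Cyp2u1. Of all 85 members, 76 had reads in both libraries, 3 only in the control and 6 only with the tumour.

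Genes that regulate, supply or complement these enzymes were read from a list of 73, of which 60 were tested, 13 were higher by 2-fold or more, 4 lower by as much and 43 within 2-fold, with a median log2 ratio of 0.17. Over all tested genes 9.38% were as far higher and 6.53% as far lower, with a median of 0.06. Among the electron donors, Por, the reductase that feeds electrons to all microsomal P450s, was at 242 RPKM (3166 reads) and 528 RPKM (6991 reads), 2.19-fold higher (2.10 to 2.28). Fdx1, the mitochondrial ferredoxin, was at 22.9 and 47.9 RPKM, 2.09-fold higher (1.65 to 2.67). Cyb5a and Cyb5r3, the cytochrome b5 pair that also passes electrons to P450s, had ratios of 1.12 (1.02 to 1.22) and 1.27 (1.19 to 1.35). The electron donors went both ways, with 4 of 6 above 0 and 2 below 0. Of the lower ones, Cyb5b was at 105 and 78.5 RPKM, 1.33-fold lower (1.25 to 1.42). The other was under 10 RPKM in both libraries. Por was thus at least 2-fold higher, as were 5 of the 16 tested P450 members, Cyp2b10, Cyp4b1 and Cyp1b1 among them. Of the other P450 members, 10 lay within 2-fold and 1 was at least 2-fold lower, as was Cyp2f2.

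Of the receptors and regulators, 7 of 12 were tested, with 2 higher by 2-fold or more and 0 lower by as much. Nr1i3, encoding CAR, had 0 reads in both libraries, and Nr1i2, encoding the related receptor PXR, had 9 reads in each. A count of 0 allows up to 3 reads in such a library. Ahr, the aryl hydrocarbon receptor, was at 2.76 RPKM (81 reads) and 6.76 RPKM (200 reads), 2.45-fold higher (1.88 to 3.21), while its target Tiparp was at 28.7 and 28.6 RPKM and its repressor Ahrr had 0 reads in both. Rxra, the partner of many nuclear receptors, was at 11.1 and 24.9 RPKM, 2.25-fold higher (1.96 to 2.58). Nfe2l2, encoding the antioxidant regulator Nrf2, was at 178 and 104 RPKM, 1.70-fold lower (1.59 to 1.82).

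Further oxidation and reduction enzymes were divided, with 5 of 24 tested genes 2-fold or more higher and 4 as far lower. Cbr2, a carbonyl reductase of lung, was the most abundant of them and above every member, at 6198 and 5269 RPKM, 1.18-fold lower (1.16 to 1.19). Akr1c14 (11 and 42.7 RPKM), Nqo1 (4.95 and 15.8 RPKM), Xdh (68.0 and 165 RPKM) and Akr1b8 (29.2 and 64.9 RPKM) were 3.89-fold, 3.19-fold, 2.43-fold and 2.22-fold higher. Pon1, a paraoxonase, was 3.49-fold lower (2.98 to 4.10), at 87.0 and 24.9 RPKM, and Aox3, an aldehyde oxidase, 2.58-fold lower (2.41 to 2.76), at 130 and 50.4 RPKM. For conjugation and cofactor supply, 2 of 17 tested genes were 2-fold or more higher and 0 as far lower. Gclc and Gclm, the subunits of the enzyme that limits glutathione synthesis, were 1.88-fold (1.81 to 1.96) and 1.97-fold (1.57 to 2.49) higher, and Gsr, which regenerates glutathione, was 2.26-fold higher (1.94 to 2.65). Of 6 tested efflux transporters, 2 were at least 2-fold higher, both at or under 2.35 RPKM in the higher library.

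Markers of other cell types were read beside these values and differed in both directions. AT1 markers summed to 2006 and 2863 RPKM over 8 genes, with 4 at least 2-fold higher, ciliated markers to 416 and 346 RPKM over 8 genes, with 1 higher and 1 lower, and erythroid markers to 11 and 23.2 RPKM over 4 genes. Club markers were at 32311 and 36773 RPKM summed over 10 genes, all of them read in both libraries, with 2 of them 2-fold or more higher (Scgb3a1 and Reg3g), 2 as far lower (Cyp2f2 and Cckar) and 6 within 2-fold. The leading club gene Scgb1a1 was at 30142 and 35116 RPKM, a ratio of 1.16, while Reg3g was 5.46-fold and Scgb3a1 3.67-fold higher. Fibroblast markers summed to 83.3 and 660 RPKM over 10 genes, with 8 of 9 tested genes at least 2-fold higher and Lum and Tcf21 at 0 in the control. Smooth muscle and pericyte markers summed to 2.55 and 13.9 RPKM over 6 genes, with 2 of 3 tested genes at least 2-fold higher and Acta2, Myh11 and Cspg4 at 0 in the control. Endothelial markers summed to 31.2 and 132 RPKM, with 8 of 10 tested genes at least 2-fold higher, and macrophage and monocyte markers to 37.6 and 107 RPKM over 10 genes, with 4 of 6 tested genes higher, C1qb and C1qc at 0 in the control, and Marco, Adgre1, Mrc1 and Siglecf at 0 in both. Mesothelial markers summed to 85.3 and 161 RPKM over 5 genes, nearly all of it Krt19, which epithelial cells also express. Of that list, Msln was at 1.49 and 16.6 RPKM, Upk3b at 0 in the control and Lrrn4 at 0 in both. The fibroblast genes of the tumour-bearing library ranged from 0.30 to 214 RPKM. Most members lay within this wide range, including Cyp1b1 at 23.8 RPKM and Aldh1a2 at 1.97 RPKM. Only Cyp2b10, Ces1d, Aldh2 and Cyp4b1 were above it. A level inside or above the range does not show which cells the RNA of a member came from. The part of these cells in the enzyme values was not tested.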

How the data were processed

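RNA of sorted lung epithelial cells was sequenced in 2 libraries, 1 control and 1 tumour-bearing. The authors deposited 1 table of RPKM per library, per the file headers, and Trimmomatic and mm10 are named in the submitters' processing notes. Aligner, counting tool, annotation, strand setting and pooling of mice were not given in the sources used here. Genes listed in 1 table only were set to 0 in the other, and values were compared as deposited, with a pseudocount of 1 and a filter of 1 RPKM.

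Library totals were the largest numbers at which 40 rows among the lowest values all gave a whole gene length. Per gene, reads were then the numbers giving 1 whole length in both libraries, with multiples settled by row order. This gave reads for 15090 genes, holding 83.1% and 87.8% of the library totals. Genes without settled reads included Sftpc, Sftpa1 and Sftpb. The totals are estimates. The implied length equalled a GENCODE M21 transcript length for 16 of 85 members. Recovery and the size rule were tested on simulated data.

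Identity was the best blastn (2.17.0) alignment over at least 80% of the GENCODE M21 coding sequences. Positions and promoters came from RefSeq by GeneID, positions for 85 members and promoters for 67. A run is a series of members at most 300 kb apart. Python 3.11.15, pandas 2.3.3 and scipy 1.17.1 were used.

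No test was made, as each group held 1 library, and counts of the main setting are set beside the share of all tested genes. The members, gene lists and markers were chosen with earlier results of these data known. Members at 10 RPKM or more were named with values, those from 1 to 10 RPKM where they passed 2-fold, and other pathway genes at 10 RPKM or more or as regulators. 1 member is counted but not reported here by itself. A few more low members were named after their values were seen. Alternatives were other pseudocounts, filters, scalings, fold limits, recovered reads and other choices of members.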

Additional observations from a re-analysis of the deposited data

How the results depend on the processing

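Across 7 settings of pseudocount, scaling and unit, Cyp1b1, Cyp2b10, Cyp4b1, Fmo2 and Sult1a1 were at least 2-fold higher and Aldh1a7 at least 2-fold lower in each. None of the 14 genes past 2-fold changed sign in them. That outcome was nearly fixed, since a pseudocount cannot change a sign and the scalings moved log2 ratios by at most 0.067. The share of all tested genes was given above for the main setting only, so the counts below do not show whether members differed from all genes. The count of higher genes was 11. It was 5 with a pseudocount of 5, 7 of 46 genes with a filter at 5 RPKM and 4 with a 4-fold limit. It rose to 13 with a pseudocount of 0.1, 13 on recovered reads with 0.5 added and 15 with a 1.5-fold limit. The count of lower genes was 3. It was 8 and 1 with pseudocounts of 0.1 and 5, 1 with the 5 RPKM filter, 9 on recovered reads with 0.5 added, and 14 and 0 with 1.5-fold and 4-fold limits. It was 5 with trimmed-mean scaling, with upper-quartile scaling and with scaling to the sum without Sftpc, and the log2 ratio of the summed RPKM was then 0.16, 0.14 and 0.14. That ratio was 0.33 without the 6 members that have another member at 90% identity or more, and -0.051 without Cyp2b10, both chosen after seeing the data. Choosing members by current symbols added Gstp3 and kept both counts, and the median of the members stayed between -0.19 and -0.099 in all its alternatives. Leaving out near-identical proteins was replaced by coding sequences, since no protein table was used here. No paired analysis was possible because each group has 1 library. Depth limits the low genes, whose exact intervals cover counting error without molecular identifiers only: the interval of Gstm6, from 7 and 2 reads, ran from 0.029 to 1.49.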
